A study of Mus musculus with 12 samples.

Results

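The genes described here encode the subunits, activators, inhibitor and assembly chaperones of the proteasome, measured in quadriceps muscle of dystrophic mice. Members were the transcript clusters that the platform annotation pairs with exactly 1 symbol beginning with Psma, Psmb, Psmc, Psmd, Psme, Psmf or Psmg, without Psmb8, Psmb9, Psmb10 and pseudogenes, and the brightest cluster of each symbol was used. This gave 45 genes of the 30086 gene symbols on the array, and all 45 were tested. Male utrn+/-;mdx mice on the C57BL/10 background, which lack dystrophin and carry a single working copy of the utrophin gene, were studied at 6 weeks of age in 4 groups of 3. One group received prednisolone at 1.5 mg/kg/day in the water bottle, and the next received spironolactone at 100 mg/kg/day with lisinopril at 20 mg/kg/day in medicated pellets. The other pellet group received eplerenone at 200 mg/kg/day with the same dose of lisinopril, and the last group ate normal chow without drug. Treatment began at 4 weeks of age. Prednisolone is a glucocorticoid, spironolactone and eplerenone block the mineralocorticoid receptor, and lisinopril inhibits angiotensin-converting enzyme. No healthy mice and no group on drug-free pellets are among the samples, so the pellet diet and its drugs cannot be told apart, and mineralocorticoid antagonists were never given without lisinopril. Each mouse had its own array, and the signal of a gene is its log2 value after the authors' robust multi-array average (RMA), on which a difference of 1 is nominally a doubling. Values reach 19.93, above what a scanner can record, so folds here are those of the deposited scale.

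The proteasome degrades proteins tagged with ubiquitin. Its 20S core is a barrel of stacked rings built from alpha subunits, which gate the entrance, and beta subunits, some of which cut proteins. The 19S cap holds ATPases that unfold and feed the substrate and non-ATPase subunits that bind or remove ubiquitin. Other activators can replace the cap, and dedicated chaperones assemble both parts. In skeletal muscle the proteasome breaks down contractile proteins, and glucocorticoids are known to raise muscle ubiquitin ligases that deliver substrates to it. By role the 45 genes fell into 8 alpha-ring and 7 beta-ring genes, 6 ATPases, 11 non-ATPase subunits, 3 activators, 1 inhibitor and 7 assembly chaperones. The remaining 2 carry such a symbol but encode other proteins: Psmc3ip, a factor in homologous recombination, and Psme3ip1, which encodes a protein that binds an activator. The clusters of Psmb5, the catalytic subunit with chymotrypsin-like activity, and of the activator gene Psme2 are each annotated with more than 1 gene, so neither is a member and neither is described.

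All 11 skeletal muscle fibre markers of the labelled quadriceps were measured, and even the dimmest, Tnni2, read 15.44 to 16.13 over the 12 arrays. Acta1 and Myh4 had the same value as each other on every array, 19.91 to 19.93, at the top of the deposited scale. The brightest fibre markers are therefore saturated and say little about differences in fibre content. Among the rest, Ttn (18.18), Neb (19.01), Pvalb (18.70), Tnnt3 (19.46) and Tnni2 were lowest in untreated replicate 2. Myh1, Myh2 and Ckm were lowest on arrays of spironolactone plus lisinopril. No 2 arrays were identical, replicates correlated at r = 0.992 to 0.996 across clusters, and array medians were 5.70 to 5.81. Untreated replicates 2 and 3 stood apart from the other arrays in the neutrophil gene S100a8, which read 12.93 and 12.03 there, against 7.14 in untreated replicate 1 and 5.12 to 7.99 on the 9 treated arrays. Differences called against the untreated group are therefore also given with untreated replicate 1 as its sole array. Bulk muscle RNA cannot tell fewer cells of a type from less RNA per cell.

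Proteasome transcripts differed little between treatments. After adjustment over all 30412 clusters (limma, Benjamini-Hochberg, threshold 0.05), 3 of the 45 genes were higher and 0 lower in prednisolone than in untreated muscle: the core subunit gene Psmb7, the cap ATPase gene Psmc5 and the activator gene Psme4. These 3 of 45 stand next to 6.39% of all clusters called in that comparison (3.22% higher and 3.17% lower) and 11.6% of clusters at or above the median level, where 42 of the 45 genes lie. The share is near the background. No gene passed in any other comparison or in the F-test over the 4 groups. There the smallest adjusted p of a member was 0.0993, and 1.93% of all clusters were called. At an unadjusted p under 0.05 the F-test had 12 of the 45 members, against 5960 of 30412 clusters.

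**Figure D1:**
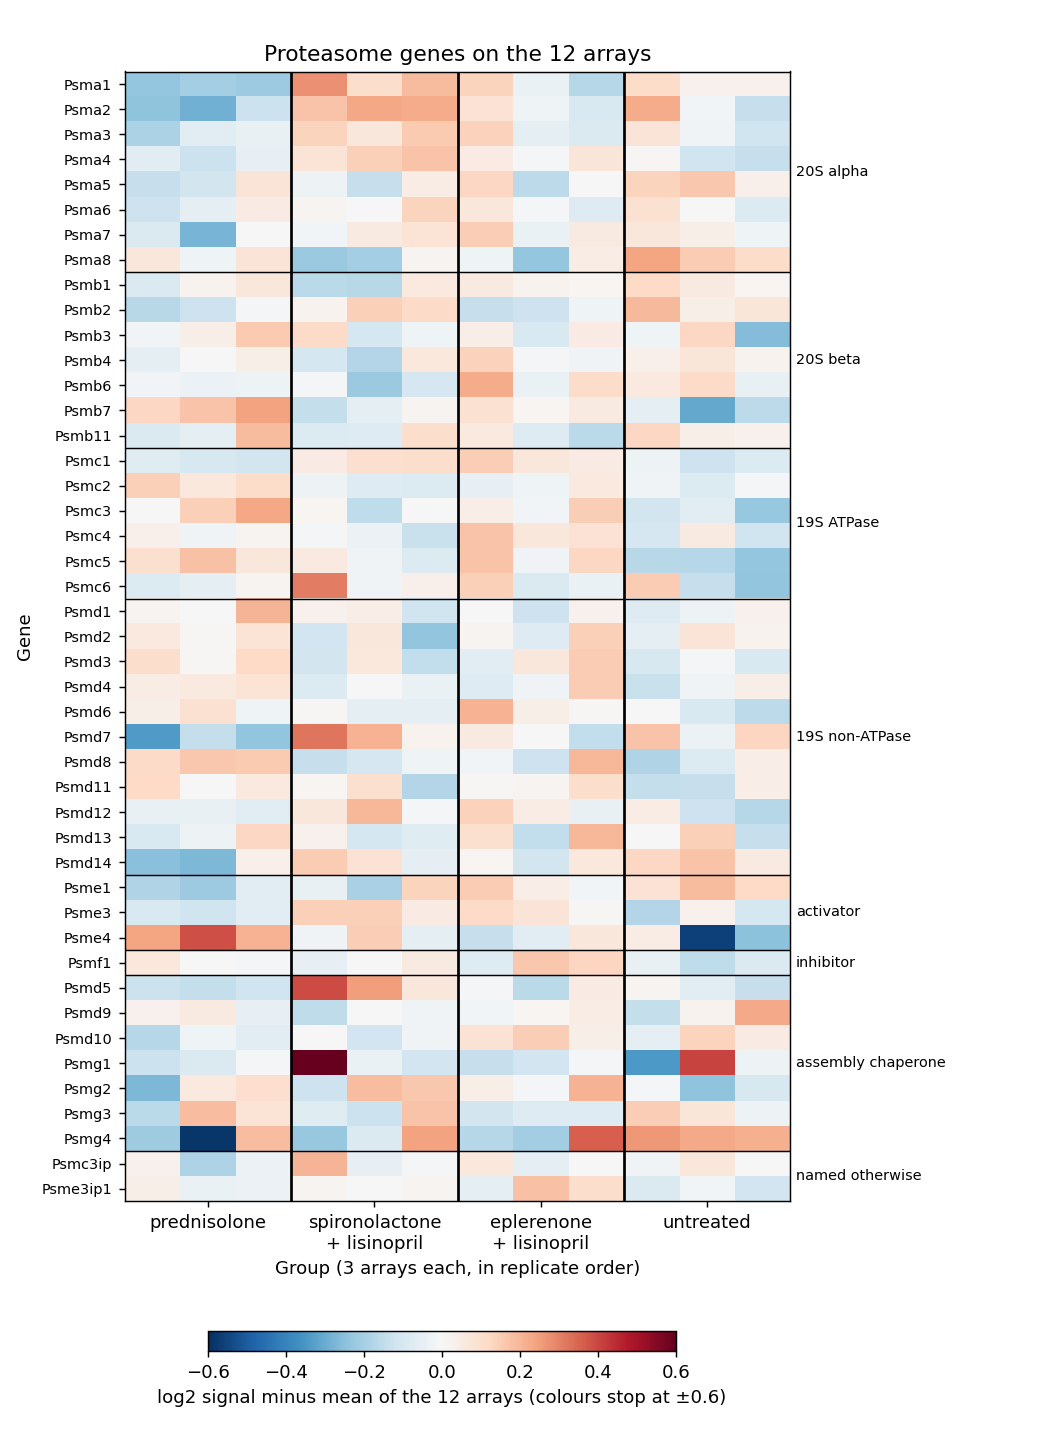
Signal of the 45 proteasome genes (rows, by role) on the 12 arrays (columns, 3 per group in replicate order), as log2 signal minus the mean of the 12 arrays; red is above and blue below that mean. Most cells are pale, the alpha-ring genes Psma1 and Psma2 are blue on the prednisolone arrays and red with spironolactone plus lisinopril, and Psme4 is red on all 3 prednisolone arrays.

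Psmb7 encodes the core subunit with trypsin-like cutting activity. Its log2 signal was 14.08, 14.12 and 14.19 in prednisolone mice, 13.81, 13.90 and 13.97 with spironolactone plus lisinopril, 14.04, 13.97 and 14.01 with eplerenone plus lisinopril, and 13.90, 13.65 and 13.80 in untreated mice. All prednisolone arrays lay above all untreated arrays, and the arrays of both pellet groups lay below all prednisolone arrays. Psmb7 was higher in prednisolone mice by 0.35 ± 0.08 (SE) on the log2 scale, 1.27-fold, with a 95% interval of 0.17 to 0.53 and an adjusted p of 0.0331 (limma). With untreated replicate 1 as the only untreated array the difference was 0.23.

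Psmc5 encodes an ATPase of the ring that docks the cap on the core. It read 11.21, 11.29 and 11.18 in prednisolone mice, 11.17, 11.09 and 11.03 with spironolactone plus lisinopril, 11.28, 11.09 and 11.24 with eplerenone plus lisinopril, and 10.95, 10.94 and 10.88 in untreated mice. The untreated arrays were the 3 lowest of the 12, and the 3 treated groups lay above them without overlap. The prednisolone difference from untreated was 0.30 ± 0.08 (SE), 1.23-fold, with an interval of 0.13 to 0.47 and an adjusted p of 0.0427 (limma). Against untreated replicate 1 alone it was 0.28. With eplerenone plus lisinopril Psmc5 differed from untreated by 0.28 without passing (adjusted p = 0.215).

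Psme4 encodes a large activator that caps the core in place of the 19S particle and is known for a part in degrading histones. Its signal was 12.91, 13.06 and 12.88 in prednisolone mice, 12.65, 12.82 and 12.62 with spironolactone plus lisinopril, 12.53, 12.61 and 12.74 with eplerenone plus lisinopril, and 12.72, 12.11 and 12.43 in untreated mice. The prednisolone arrays were the 3 highest, and the untreated arrays spread more widely than any other group (SD 0.30, against 0.10 in prednisolone mice). The difference was 0.53 ± 0.14 (SE), 1.44-fold, with an interval of 0.23 to 0.83 and an adjusted p of 0.0450 (limma). It was the largest rise among the members. With untreated replicate 1 alone it was 0.23, and without that array it was 0.68 (adjusted p = 0.00913).

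All 3 calls lay close to the threshold. Untreated replicate 2, lowest of the 12 arrays in the fibre markers Ttn, Neb, Pvalb, Tnnt3 and Tnni2, was also lowest in Psmb7 and Psme4. Psmc5 was lowest in untreated replicate 3, and a link to fibre content was not tested. No proteasome gene passed with the replicate number as a block, with an intensity trend and robust prior, with all 65587 clusters tested or with only these 2 groups in the fit. Without 1 or another of the prednisolone arrays, or without untreated replicate 2 or 3, no proteasome gene passed, and without untreated replicate 1 Psmb7 and Psme4 passed. Among members described below that did not pass, the prednisolone difference with untreated replicate 1 alone was -0.33 for Psma1, -0.41 for Psmd7, -0.29 for Psmd14, -0.24 for Psme1 and 0.24 for Psmc3.

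**Figure D2:**
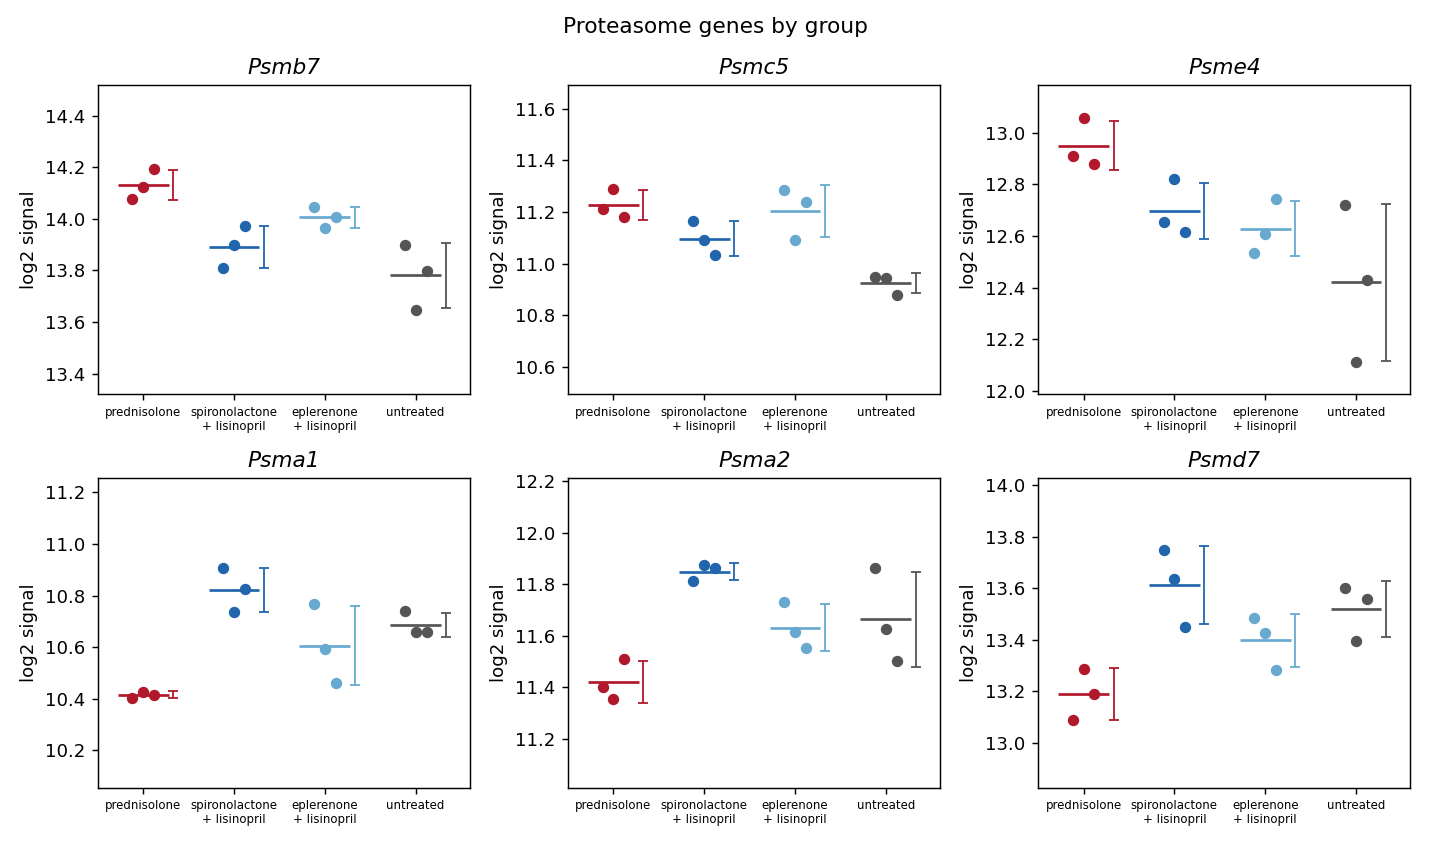
Log2 signal (vertical axes, each panel with its own range) of Psmb7, Psmc5, Psme4, Psma1, Psma2 and Psmd7 by group; points are the 3 arrays of a group, lines their mean and bars ± 1 SD. Prednisolone points lie above all untreated points for Psmb7, Psmc5 and Psme4 and below them for Psma1 and Psmd7.

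Promoter sequences are shown for 4 genes that lead the comparisons and have an entry in the RefSeq table (GRCm38.p6): Psmc5 and Psme4, which passed the test, and Psma1 and Psma2, the alpha-ring genes that differed most between prednisolone and the spironolactone combination. Each is 210 bases, 5′ to 3′ on the strand of the gene, from 200 bases before the annotated start to 10 after it. Capitals mark matches, on either strand, to CCAAT (the box bound by nuclear factor Y), GGGCGG (a GC box) or TGACNNNGC (the core of the element bound by the Nfe2l1 and Nfe2l2 factors).
Psmc5 (chr11:106255985-106256194, plus strand): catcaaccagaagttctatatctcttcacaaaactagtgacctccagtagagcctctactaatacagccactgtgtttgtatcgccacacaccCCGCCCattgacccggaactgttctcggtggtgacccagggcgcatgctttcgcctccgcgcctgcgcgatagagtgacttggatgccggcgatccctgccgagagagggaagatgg
Psme4 (chr11:30771575-30771784, plus strand): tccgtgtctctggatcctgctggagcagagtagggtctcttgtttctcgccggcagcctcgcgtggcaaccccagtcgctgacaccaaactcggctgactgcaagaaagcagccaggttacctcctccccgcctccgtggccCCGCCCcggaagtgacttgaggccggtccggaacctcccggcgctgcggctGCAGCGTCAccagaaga
Psma1 (chr7:114276107-114276316, minus strand): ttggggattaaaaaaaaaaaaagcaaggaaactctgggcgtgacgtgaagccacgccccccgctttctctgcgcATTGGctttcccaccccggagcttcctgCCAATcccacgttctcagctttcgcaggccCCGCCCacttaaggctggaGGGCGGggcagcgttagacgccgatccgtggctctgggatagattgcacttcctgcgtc
Psma2 (chr13:14613042-14613251, plus strand): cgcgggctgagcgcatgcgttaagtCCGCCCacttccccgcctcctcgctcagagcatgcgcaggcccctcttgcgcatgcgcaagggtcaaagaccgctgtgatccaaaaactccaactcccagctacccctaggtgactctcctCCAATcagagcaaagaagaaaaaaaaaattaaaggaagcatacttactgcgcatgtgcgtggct
In these windows Psmc5 holds a GC box on the opposite strand at -107, counted in bases from the start, and no match to the other 2 motifs. Psme4 holds a GC box at -58 and a TGACNNNGC match that begins at -7, both on the opposite strand. Psma1 holds CCAAT at -126 and -98 and a GC box at -68 and -49, and Psma2 holds CCAAT at -54 and a GC box at -175. Over the 37 members with an entry, and with the window of 250 bases before to 50 after the start, CCAAT was in 15 (40.5%), against 41.1% of 27025 genes. GGGCGG was in 22 (59.5%, against 38.2% of all genes) and TGACNNNGC in 5 (13.5%, against 14% of all genes). The letters of 1 motif can lie within another, and a match is no evidence of binding.

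Prednisolone against untreated showed small differences in both directions. At an unadjusted p under 0.05, 5 members were higher and 6 lower in prednisolone mice, 11 of 45 against 21.6% of all clusters, and 16 had groups that did not overlap (9 higher, 7 lower), against 26.7% of all clusters. The median log2 difference was -0.01 over the members and -0.01 over all clusters, and the median absolute difference was 0.10 over the members, against 0.14 over all clusters and 0.20 over clusters at or above the median level. The differences ran from -0.44 in Psmg4 to 0.53 in Psme4, and no member reached 2-fold. The 95% interval lay within 1.5-fold either way for 43 of the 45 genes, next to 68.8% of all clusters. The 2 exceptions were Psme4 and Psmg4, whose intervals reached 0.83 and -0.88.

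The roles differed in the sign of their small shifts. Of the alpha-ring genes 1 was above and 7 below 0 (median -0.14), and of the beta-ring genes 2 were above and 5 below (median -0.05). Of the ATPases 5 were above and 1 below (median 0.10), and of the non-ATPase subunits 9 were above and 2 below (median 0.10). Of the assembly chaperones 1 was above and 6 below (median -0.07). These are counts of signs, most of them from differences that did not pass, and the contrast between roles was not tested.

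**Figure D3:**
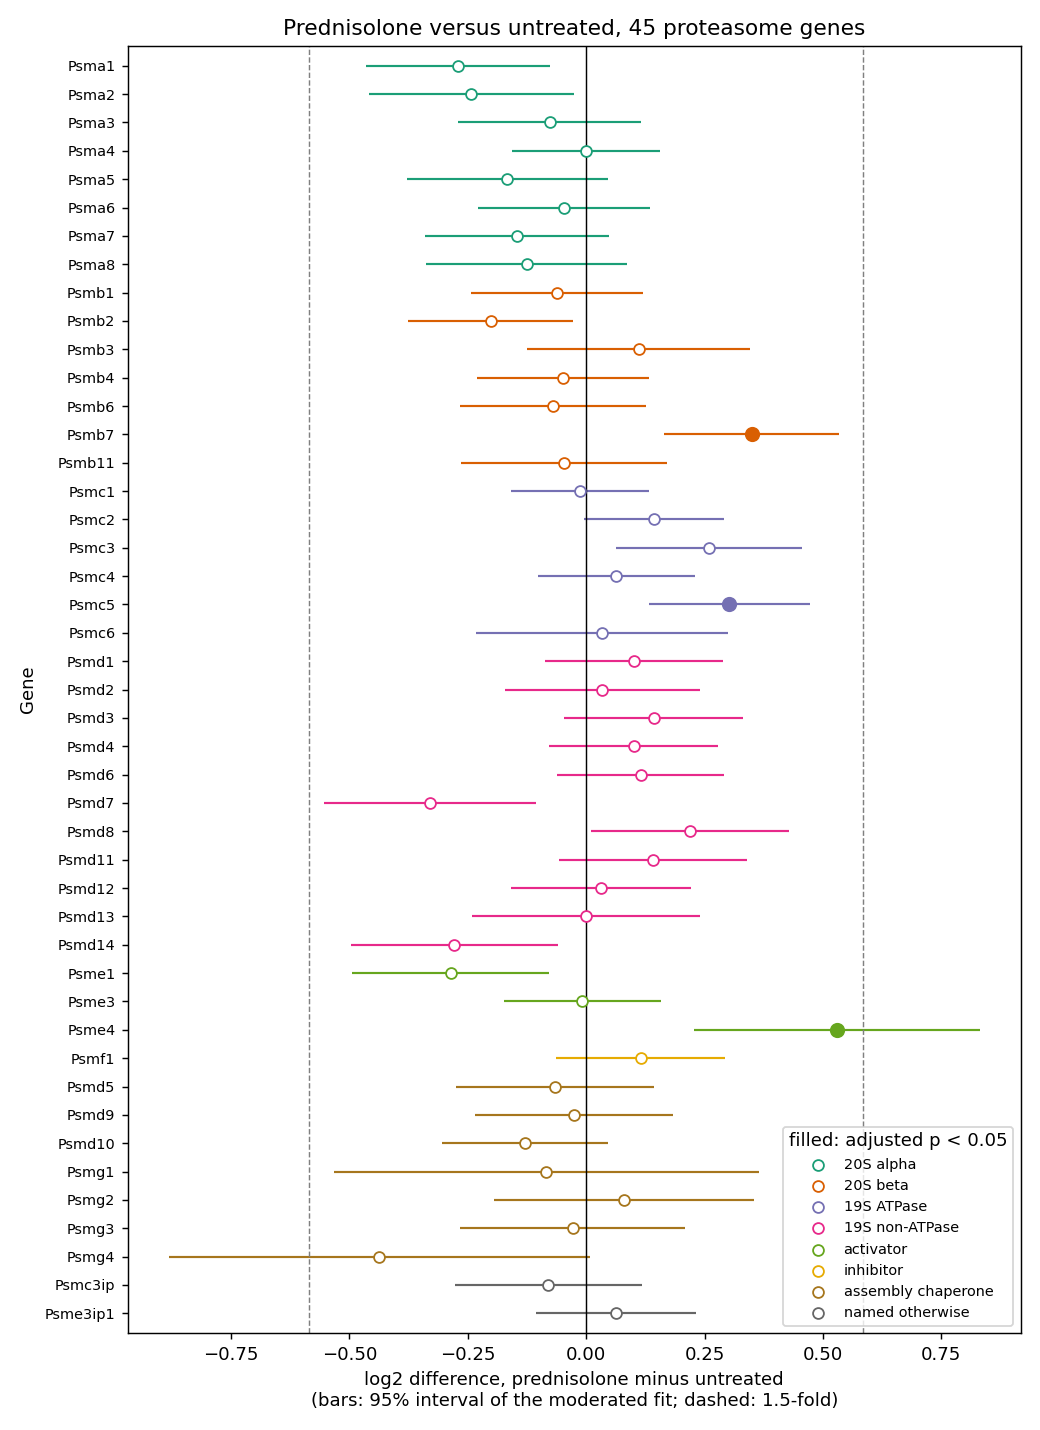
Log2 difference of prednisolone minus untreated for the 45 genes (rows, coloured by role), with the 95% interval of the moderated fit as bars and dashed lines at 1.5-fold either way. Filled points mark Psmb7, Psmc5 and Psme4, the 3 genes past the adjusted threshold, and the intervals of Psme4 and Psmg4 are the 2 that cross a dashed line.

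In the alpha ring, Psma1 was the member nearest the threshold in prednisolone against untreated, without passing it (-0.27 ± 0.09, SE; adjusted p = 0.0968, limma). It read 10.40, 10.43 and 10.42 in prednisolone mice, 10.91, 10.74 and 10.82 with spironolactone plus lisinopril, 10.77, 10.59 and 10.46 with eplerenone plus lisinopril, and 10.74, 10.66 and 10.66 in untreated mice. The prednisolone arrays were the 3 lowest. Psma7, another alpha-ring gene, read 8.87, 8.68 and 8.96 in prednisolone mice, 8.94, 9.01 and 9.04 with spironolactone plus lisinopril, 9.10, 8.92 and 9.01 with eplerenone plus lisinopril, and 9.03, 8.99 and 8.93 in untreated mice. The ranges of all 4 groups overlapped, and its prednisolone difference from untreated was -0.15 (interval -0.34 to 0.05). Psma8, which encodes an alpha subunit of the testis, was among the dimmest members at 4.51 to 4.97 on all arrays.

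In the beta ring, Psmb6 encodes the subunit with caspase-like activity. It read 10.71, 10.69 and 10.70 in prednisolone mice, 10.72, 10.50 and 10.63 with spironolactone plus lisinopril, 10.95, 10.69 and 10.84 with eplerenone plus lisinopril, and 10.79, 10.84 and 10.68 in untreated mice. Prednisolone arrays fell inside the untreated range, and the difference was -0.07 (95% interval -0.27 to 0.13). Psmb2, a beta-ring gene, differed by -0.20 in prednisolone mice without passing (adjusted p = 0.167). Psmb11, which encodes a subunit of thymic epithelium, was below the median level of all clusters, as were Psma8 and the chaperone gene Psmg3.

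Among the cap ATPases, 3 of the 6 had prednisolone arrays wholly above the untreated ones, where 26.7% of all clusters did not overlap in either direction. Besides Psmc5 these included Psmc3, at 9.96, 10.10 and 10.19 in prednisolone mice, against 9.85, 9.89 and 9.73 in untreated mice (0.26 ± 0.09, SE; adjusted p = 0.116, limma). Psmc4 read 10.63, 10.58 and 10.61 in prednisolone mice, 10.59, 10.56 and 10.46 with spironolactone plus lisinopril, 10.77, 10.67 and 10.68 with eplerenone plus lisinopril, and 10.50, 10.65 and 10.48 in untreated mice. Its prednisolone and untreated arrays overlapped (0.06, interval -0.10 to 0.23).

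Among the non-ATPase subunits of the cap, Psmd7 encodes the partner of the deubiquitinase encoded by Psmd14, and the signals of both genes were lower in prednisolone mice without passing. Psmd7 read 13.09, 13.29 and 13.19 in prednisolone mice, 13.75, 13.64 and 13.45 with spironolactone plus lisinopril, 13.48, 13.43 and 13.28 with eplerenone plus lisinopril, and 13.60, 13.40 and 13.56 in untreated mice. The prednisolone minus untreated difference was -0.33 ± 0.10 (SE; adjusted p = 0.0827, limma), with no overlap between those groups. Psmd14 read 9.25, 9.23 and 9.53 in prednisolone mice, 9.65, 9.59 and 9.44 with spironolactone plus lisinopril, 9.51, 9.39 and 9.56 with eplerenone plus lisinopril, and 9.62, 9.67 and 9.55 in untreated mice. Its difference was -0.28 ± 0.10 (SE; adjusted p = 0.129, limma).

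Other cap subunits gave differences nearer 0. Psmd4, a ubiquitin receptor, read 9.38, 9.39 and 9.41 in prednisolone mice, 9.25, 9.33 and 9.29 with spironolactone plus lisinopril, 9.25, 9.31 and 9.49 with eplerenone plus lisinopril, and 9.20, 9.31 and 9.37 in untreated mice. The prednisolone difference of 0.10 had an interval of -0.08 to 0.28. Psmd1, a scaffold of the cap, read 11.88, 11.86 and 12.06 in prednisolone mice, 11.89, 11.90 and 11.74 with spironolactone plus lisinopril, 11.86, 11.74 and 11.89 with eplerenone plus lisinopril, and 11.78, 11.83 and 11.89 in untreated mice. The groups overlapped (0.10, interval -0.09 to 0.29). Psmd11, which links the cap to the core, read 11.77, 11.66 and 11.71 in prednisolone mice, 11.66, 11.75 and 11.47 with spironolactone plus lisinopril, 11.66, 11.67 and 11.76 with eplerenone plus lisinopril, and 11.51, 11.52 and 11.69 in untreated mice. Its prednisolone difference was 0.14 (interval -0.06 to 0.34), with overlap.

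The other activators and the inhibitor did not pass. Psme1 encodes a subunit of the activator that interferon induces and that serves antigen processing. It read 9.13, 9.10 and 9.25 in prednisolone mice, 9.27, 9.12 and 9.45 with spironolactone plus lisinopril, 9.47, 9.36 and 9.30 with eplerenone plus lisinopril, and 9.40, 9.51 and 9.43 in untreated mice. All prednisolone arrays lay below all untreated ones (-0.29 ± 0.09, SE; adjusted p = 0.10, limma), the opposite sign to Psme4. Psme3, a nuclear activator, read 11.60, 11.57 and 11.62 in prednisolone mice, 11.84, 11.83 and 11.74 with spironolactone plus lisinopril, 11.80, 11.77 and 11.70 with eplerenone plus lisinopril, and 11.51, 11.71 and 11.59 in untreated mice. Prednisolone and untreated arrays overlapped (-0.01, interval -0.17 to 0.16). Psmf1, which encodes a proteasome inhibitor, read 7.40, 7.34 and 7.33 in prednisolone mice, 7.28, 7.34 and 7.39 with spironolactone plus lisinopril, 7.26, 7.50 and 7.46 with eplerenone plus lisinopril, and 7.29, 7.18 and 7.25 in untreated mice, a prednisolone difference of 0.12 (interval -0.06 to 0.29).

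The assembly chaperones held the least reproducible members. Psmg1, which helps to build the alpha ring, read 8.29, 8.33 and 8.41 in prednisolone mice, 9.03, 8.38 and 8.31 with spironolactone plus lisinopril, 8.28, 8.31 and 8.42 with eplerenone plus lisinopril, and 8.08, 8.82 and 8.39 in untreated mice. A single array in each of the spironolactone and untreated groups carried most of its range, which at 0.96 was the widest of the members. Psmg4 ranged over 0.94 and Psme4 over 0.95, and Psmc2, a cap ATPase gene, had the narrowest range at 0.23. The residual SD within groups was 0.28 for Psmg1 and 0.28 for Psmg4. Its median over the members was 0.0936, against 0.163 over all clusters and 0.158 over clusters at or above the median level, and Psme4, Psmg1 and Psmg4 were the 3 members above the all-cluster median.

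After the group means were removed, correlations among the core genes were positive in the median, with wide ranges. The median over the 12 arrays was 0.53 among alpha-ring genes (28 pairs, -0.05 to 0.87). It was 0.45 between alpha- and beta-ring genes (56 pairs, -0.34 to 0.92) and 0.33 among beta-ring genes (21 pairs, -0.28 to 0.80). Between alpha-ring genes and ATPases it was 0.25 (48 pairs). It was 0.14 among the ATPases (15 pairs), 0.18 among the non-ATPase subunits (55 pairs) and -0.06 among the chaperones (21 pairs). These are descriptions over 8 residual degrees of freedom, and genes on an array share its RNA and its overall brightness. Correlations among other clusters were not computed for comparison.

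Spironolactone plus lisinopril against untreated gave no call among the members (0.0822% of all clusters were called). At an unadjusted p under 0.05 there were 6 members, 5 higher and 1 lower, against 16.2% of all clusters, and 7 had groups that did not overlap, against 20.4% of all clusters. The median difference was 0.03 over the members and -0.04 over all clusters, and 43 of 45 intervals lay within 1.5-fold. The 4 members with the smallest p were the 19S chaperone gene Psmd5 (0.30, adjusted p = 0.195, limma), the testis gene Psma8 (-0.30, adjusted p = 0.197), the alpha-ring gene Psma4 (0.22, adjusted p = 0.210) and Psme3 (0.20, adjusted p = 0.256). Psmd5 read 10.67, 10.53 and 10.35 with spironolactone plus lisinopril, against 10.30, 10.21 and 10.14 in untreated mice. Psma4 read 12.14, 12.20 and 12.23 with spironolactone plus lisinopril, against 12.06, 11.94 and 11.92 in untreated mice.

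Eplerenone plus lisinopril against untreated also gave no call among the members (0.0296% of all clusters). At an unadjusted p under 0.05 there were 5 members, 3 higher and 2 lower, against 13.4% of all clusters, and 9 had groups that did not overlap, against 16.9% of all clusters. The median difference was 0.03 over the members and -0.03 over all clusters. All 6 ATPase genes were above 0 (median 0.17), against 44% of all clusters and 55.9% of clusters at or above the median level. In 4 of them the eplerenone arrays lay wholly above the untreated ones. The same held for 2342 of 30412 clusters, and for 1961 of 15206 at or above the median level. The smallest p values belonged to Psmc5 (0.28), Psmb7 (0.22, adjusted p = 0.296, limma), the ATPase gene Psmc1 (0.17, adjusted p = 0.320) and Psmb2 (-0.20, adjusted p = 0.321). Psmc1 read 11.35, 11.26 and 11.25 with eplerenone plus lisinopril, against 11.17, 11.07 and 11.11 in untreated mice, and Psmb2 read 8.75, 8.76 and 8.86, against 9.08, 8.92 and 8.96 in untreated mice. The comparisons with untreated mice share the 3 untreated arrays, so their likeness is no separate evidence.

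Set directly against prednisolone, spironolactone plus lisinopril gave no call among the members, against 0.822% of all clusters. At an unadjusted p under 0.05 there were 13 members, 10 higher and 3 lower with spironolactone plus lisinopril, against 16.3% of all clusters, and 16 had groups that did not overlap, against 24% of all clusters. Of the alpha-ring genes 7 of 8 were above 0 (median 0.19). Psma1 differed by 0.41 ± 0.09 (SE; adjusted p = 0.0590, limma) and Psma2 by 0.43 ± 0.10 (SE; adjusted p = 0.0716, limma). Psma2 read 11.81, 11.87 and 11.86 with spironolactone plus lisinopril, against 11.40, 11.35 and 11.51 in prednisolone mice, with no overlap. Psmd7 differed by 0.42 ± 0.10 (SE; adjusted p = 0.0803, limma) and Psmd5 by 0.37 ± 0.09 (SE; adjusted p = 0.0948, limma). Once array medians were made equal, Psma1 and Psma2 passed, when 1.22% of all clusters were called. Among clusters at or above the median level, of which 4.07% were called, Psma1, Psma2 and Psmd7 passed.

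Eplerenone plus lisinopril against prednisolone gave no call among the members, against 0.608% of all clusters. At an unadjusted p under 0.05 there were 3 members, against 12.5% of all clusters, and 12 did not overlap, against 19.9% of all clusters. The smallest p values were those of Psmc1 (0.18, adjusted p = 0.288, limma), Psme4 (-0.32, adjusted p = 0.361), Psme1 (0.21, adjusted p = 0.379) and the 19S chaperone gene Psmd10 (0.17, adjusted p = 0.401). Psmd10 read 8.74, 8.80 and 8.68 with eplerenone plus lisinopril, against 8.48, 8.63 and 8.59 in prednisolone mice.

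The 2 pellet combinations, which differ in their mineralocorticoid antagonist and its dose, were not separated by any member: 0 of 45 passed, as did 0% of all clusters, and 6 members had an unadjusted p under 0.05, against 4.49% of all clusters (limma). Groups did not overlap for 6 members, against 9.68% of all clusters. Psmd5 (0.28), Psma1 (0.22), Psmb2 (0.19) and Psmb6 (-0.21), as spironolactone minus eplerenone combination, had the smallest p, each at an adjusted p of 0.998. The interval lay within 1.5-fold for 44 of 45 members. The doses of the antagonists differ, and a missed threshold does not show that the combinations act alike.

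Several genes around the proteasome passed the test. Counts called in these lists stand next to 3.22% of all clusters called higher and 3.17% called lower in prednisolone against untreated mice. Among clusters at or above the median level, 11.6% were called in either direction. The immunoproteasome genes Psmb8, Psmb9 and Psmb10, whose interferon-induced products replace the catalytic beta subunits, had 2 of 3 called lower in prednisolone mice. Psmb8 read 6.58, 6.47 and 6.58 in prednisolone mice, 7.01, 6.94 and 7.22 with spironolactone plus lisinopril, 7.11, 7.05 and 7.18 with eplerenone plus lisinopril, and 7.28, 7.35 and 7.55 in untreated mice. The prednisolone arrays were lowest and the untreated arrays highest, with no overlap between prednisolone and any other group (-0.85 ± 0.10 against untreated, SE; adjusted p = 0.00259, limma). Psmb10 read 7.35, 7.30 and 7.42 in prednisolone mice, against 7.93, 8.19 and 7.79 in untreated mice (-0.61 ± 0.10, SE; adjusted p = 0.00769, limma). Psmb9 read 5.66, 5.63 and 5.70 in prednisolone mice, against 5.95, 6.01 and 6.07 in untreated mice, and missed the threshold (-0.35 ± 0.09, SE; adjusted p = 0.0518, limma). Psmb8 and Psmb10 were also higher with spironolactone plus lisinopril than with prednisolone (by 0.52, adjusted p = 0.0438, and by 0.59, adjusted p = 0.0332; limma). The same 2 genes were higher with eplerenone plus lisinopril than with prednisolone (by 0.57, adjusted p = 0.0321, and by 0.57, adjusted p = 0.0367). With untreated replicate 1 alone, the prednisolone differences were -0.74 for Psmb8 and -0.58 for Psmb10.

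Psmb10 takes the place of Psmb7 in the immunoproteasome, and these 2 genes were called in opposite directions under prednisolone. The Psmb10 minus Psmb7 difference within an array, whose size in itself also depends on the probes, changed by -0.96 in prednisolone against untreated mice, with all 3 prednisolone arrays below all untreated ones (exact permutation test, two-sided, p = 0.1, the smallest that 3 against 3 allows). An exact permutation test over all 4 groups gave p = 0.00513, or 0.0103 adjusted over the 2 pairs tested. Psmb9 minus Psmb6 changed by -0.28 in prednisolone against untreated mice (exact p = 0.1; over 4 groups 0.0584, adjusted 0.0584). In untreated replicate 1 the Psmb10 minus Psmb7 difference was -5.97, against -6.73, -6.82 and -6.77 in prednisolone mice. Both pairs were chosen after the values of their genes had been seen. The adjustment does not cover that choice, so these p-values are no evidence apart from the calls of the genes.

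Among genes that control proteasome transcription or process its regulators, 0 were called higher and 2 lower of 12 measured in prednisolone against untreated mice. Nfe2l2, a stress-responsive factor, was lower with prednisolone (-0.99 ± 0.09, SE; adjusted p = 0.00097, limma), with spironolactone plus lisinopril (-0.73, adjusted p = 0.0280) and with eplerenone plus lisinopril (-0.75, adjusted p = 0.0254), each against untreated mice. It read 9.43, 9.37 and 9.55 in prednisolone mice, 9.73, 9.73 and 9.66 with spironolactone plus lisinopril, 9.74, 9.70 and 9.63 with eplerenone plus lisinopril, and 10.30, 10.61 and 10.40 in untreated mice. The untreated arrays were the 3 highest. Against untreated replicate 1 alone the differences were -0.85 with prednisolone, -0.59 with spironolactone plus lisinopril and -0.61 with eplerenone plus lisinopril. Nfya, a subunit of nuclear factor Y, was lower under prednisolone (-0.58, adjusted p = 0.0474, limma), and the difference was -0.36 with untreated replicate 1 alone. Nfe2l1, the factor known to raise proteasome subunit genes when the proteasome is inhibited, differed by 0.39 without passing (adjusted p = 0.0903).

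Muscle ubiquitin ligases had 4 of 7 measured genes higher under prednisolone than in untreated mice and 0 lower, next to 3.22% of all clusters called higher. Fbxo32, which encodes atrogin-1, read 12.79, 12.54 and 12.55 in prednisolone mice, 9.67, 9.82 and 11.12 with spironolactone plus lisinopril, 10.16, 10.65 and 10.80 with eplerenone plus lisinopril, and 11.07, 10.63 and 11.63 in untreated mice. All prednisolone arrays were above all others (1.52 ± 0.36 against untreated, SE; adjusted p = 0.0313, limma). Asb2 (1.16, adjusted p = 0.0185), Trim54 (0.93, adjusted p = 0.0136) and Fbxo40 (0.73, adjusted p = 0.0285) were also higher. Against untreated replicate 1 alone these 4 differences were 1.56 for Fbxo32, 1.39 for Asb2, 0.95 for Trim54 and 0.48 for Fbxo40. With spironolactone plus lisinopril Fbxo32 was lower than with prednisolone, at a difference of -2.42 (adjusted p = 0.0191, limma), as was Asb2, at -1.51 (adjusted p = 0.0233), and with eplerenone plus lisinopril Fbxo32 was lower than with prednisolone, at -2.09 (adjusted p = 0.0321). Trim63, which encodes MuRF1, differed by 0.38 without passing (adjusted p = 0.448). The other proteasome parts and partners had 0 of 8 called, and ubiquitin genes, activating enzymes and shuttles 0 of 5 measured of 11 listed.

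**Figure D4:**
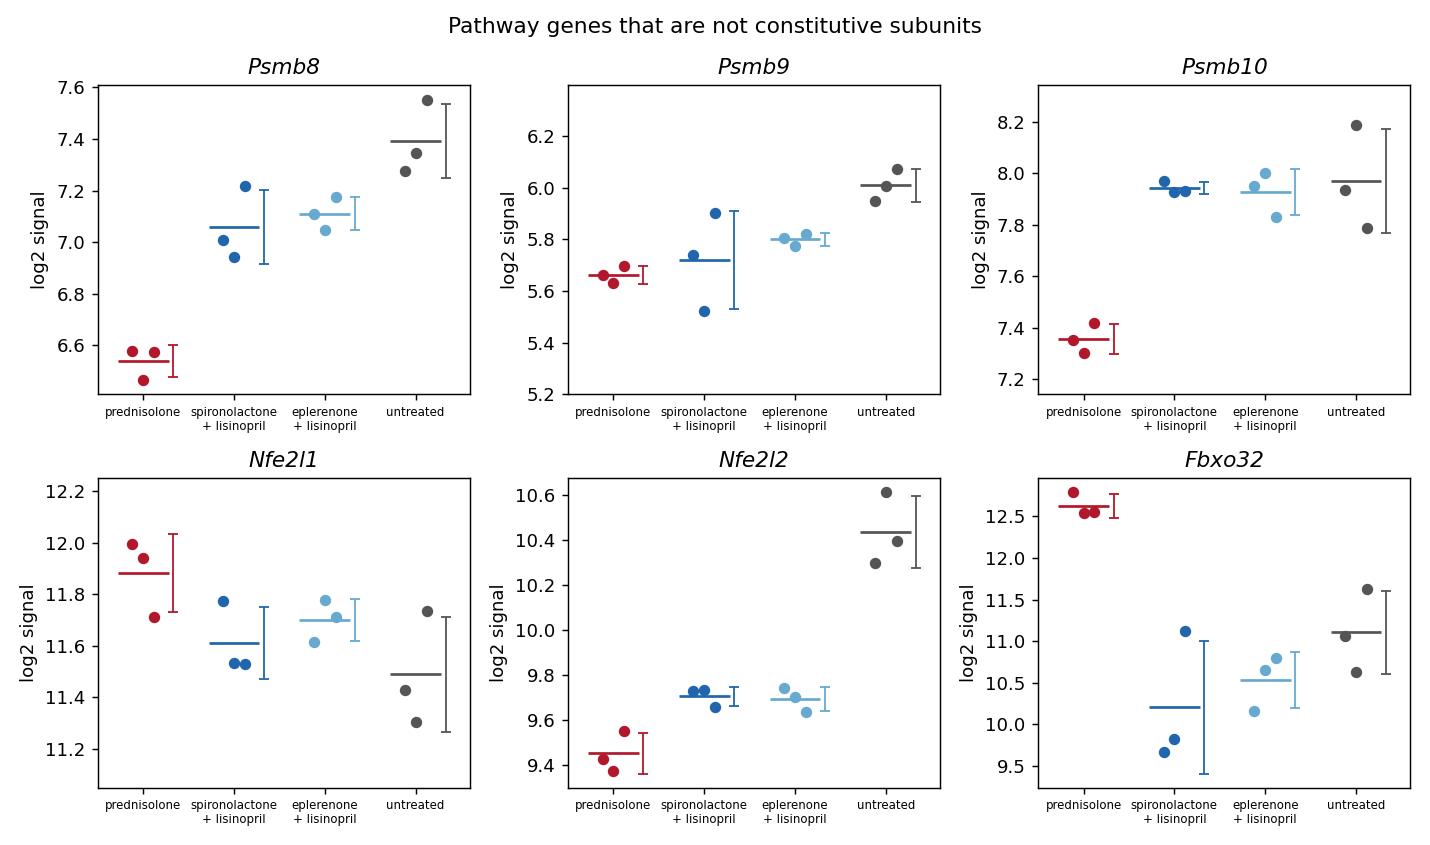
Log2 signal (vertical axes, each panel with its own range) of Psmb8, Psmb9, Psmb10, Nfe2l1, Nfe2l2 and Fbxo32 by group; points are the 3 arrays of a group, lines their mean and bars ± 1 SD. Prednisolone points are the lowest of all groups for Psmb8, Psmb10 and Nfe2l2 and the highest for Fbxo32.

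Markers of other cells differed between the groups as well. Their counts stand next to 3.22% of all clusters called higher and 3.17% called lower under prednisolone. Signals of a list were summed on the linear scale and given as the log2 of that sum, in which the brightest genes weigh most. In prednisolone against untreated mice, macrophage and monocyte genes had 0 called higher and 5 lower of 11 (18.68 to 18.92 in prednisolone mice, 19 to 19.56 in untreated mice). Lyz2, at 18.24 to 19.20 over the 12 arrays, carried most of that sum. Neutrophil genes had 2 lower of 6 (9.21 to 9.75, against 9.99 to 13.98 in untreated mice), and interferon-response genes 4 lower of 5 (9.71 to 9.77, against 10.78 to 11.95 in untreated mice). Fibroblast genes had 3 lower of 5, endothelial genes 1 of 5 and T and B cell genes 1 of 6. Regenerating fibre genes had 1 higher of 4. Adipocyte genes had 0 called of 5, with all 5 above 0 and a median of 1.19, and erythroid genes 0 of 2. Muscle fibre genes, the brightest of them saturated, had 0 called of 11, with all 11 above 0 and a median of 0.15. With untreated replicate 1 alone that median was 0.02.

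With untreated replicate 1 alone, the prednisolone medians were -0.48 for macrophage, -0.67 for fibroblast, -1.10 for endothelial and -1.21 for interferon-response genes. With all 3 untreated arrays they were -0.78, -0.57, -0.75 and -1.50. The neutrophil median was -0.11 with untreated replicate 1 alone, against -2.71 with all 3 untreated arrays. In the pellet groups, all 6 neutrophil genes lay below untreated (medians -1.97 with spironolactone plus lisinopril and -2.37 with eplerenone plus lisinopril), with none called. All 4 regenerating fibre genes lay above untreated with spironolactone plus lisinopril (median 0.77), eplerenone plus lisinopril (0.79) and prednisolone (0.75). Interferon-response genes lay below for 5 of 5 with spironolactone plus lisinopril (median -0.65) and 4 of 5 with eplerenone plus lisinopril (-0.29), with none called. All 11 macrophage genes lay below untreated in both pellet groups, with 1 called lower in each. Adipocyte genes had a median of 1.57 with spironolactone plus lisinopril and 0.48 with eplerenone plus lisinopril, with none called. Of all clusters, 0.0822% were called with spironolactone plus lisinopril and 0.0296% with eplerenone plus lisinopril, each against untreated mice. With untreated replicate 1 alone the neutrophil medians were -0.27 with spironolactone plus lisinopril and -0.99 with eplerenone plus lisinopril. The macrophage medians were then -0.31 and -0.16, and the interferon-response medians -0.31 and 0.04. Values on this scale have no zero, so no marker can be said to be absent. The part of these cells in the proteasome and pathway results was not tested.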

How the data were processed

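The authors deposited log2 signals of 65587 transcript clusters on 12 single-colour arrays, for which the submitters' processing notes name RMA, Affymetrix Expression Console and Transcriptome Analysis Console. No version, build or annotation release is given there. The deposited log2 values span 1.61 to 19.93, with 1.27 to 1.34% per array above 16, the ceiling of a scanner, so a rescaling not described there was applied and their differences may not be plain fold changes. RNA input was 100 ng per array per the labels. Per the labels the arrays are biological replicates, and 3 per group limit the precision.

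Genes were named by the platform table: 30412 clusters with 1 symbol were tested, and 2118 with several and 33057 with none were left out. limma 3.58.1 in R 4.3.3 fitted group means over 12 arrays (8 residual degrees of freedom, prior 2.94, median SE 0.13), with 6 pairwise comparisons and an F-test, each Benjamini-Hochberg adjusted over all clusters at 0.05. No members were dropped and none imputed. On simulated data the fit recovered 17 of 50 clusters set to a log2 change of 0.5 and 37 of 50 set to 1. The changed clusters were few and drawn from all clusters, whose median residual SD was 0.163, against 0.0936 for the members. The recovery therefore does not give the rate for the members. Replicate numbers did not pair arrays: same-numbered arrays of different groups had a median correlation of 0.02 in their deviations from group means (18 pairs, -0.24 to 0.16), against -0.01 for the rest. Promoters were scanned on both strands.

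The rule for named genes took every member past the threshold, 15 genes listed by function, and the 4 members with the smallest p where none passed. Psmb11, Psmc2, Psmc3, Psmg3 and Psmg4, and the pathway genes Psmb9, Nfe2l1 and Trim63, fall outside it and were named after their values were seen. The members, gene lists and markers were chosen with earlier results of these data known. Alternatives covered array scaling, a dim filter, the clusters tested, the prior, a replicate block, single groups and left-out arrays.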

Additional observations from a re-analysis of the deposited data

How the results depend on the processing

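The 3 prednisolone calls were sensitive to processing. Against untreated mice the count of members called was 0 with the replicate block (when 1452 of 30412 clusters were called, against 1942 without it). It was also 0 with an intensity trend and robust prior (1907 clusters called), with all 65587 clusters tested (1924 called) and with only the 2 groups in the fit (584 called). With untreated replicate 1 alone the differences were 0.23 for Psmb7, 0.28 for Psmc5 and 0.23 for Psme4. The count was 2 after array medians were made equal (6.05% of clusters called). It was 4 among 15206 clusters at or above the median level, where Psmd7 passed as lower and 17.3% of clusters were called, and 3 with quantile normalization or averaged symbols. Leaving out 1 array gave 0 to 2. At a 2-fold minimum it was 0. Over 21 alternatives Psmb7 passed in 11 (0.23 to 0.41), Psmc5 in 7 (0.27 to 0.33) and Psme4 in 4 (0.23 to 0.68). For spironolactone plus lisinopril against prednisolone the count was 2 with equal medians (1.22% of clusters called) and 3 above the median level (4.07% called). With 1 array left out it was 0 to 1, and for the F-test it was 0 to 1 with 1 array left out. Counts in the other 4 comparisons stayed at 0, and no difference that passed in the main fit or in an alternative changed sign. Of 2823 alternative values of the named members, 91 changed sign without passing. Psme4 was among them, at 0.28 with spironolactone plus lisinopril against untreated mice and -0.02 with untreated replicate 1 alone. Of 10 pathway differences called against untreated mice, 0 changed sign with untreated replicate 1 alone, an alternative chosen after seeing the data. The prednisolone difference went from 0.73 to 0.48 for Fbxo40, from -0.58 to -0.36 for Nfya and from 1.52 to 1.56 for Fbxo32. Where a lone untreated array stands for its group, it is assumed to vary like the others. With 3 arrays per group, log2 changes of 0.5 set in clusters drawn from all clusters were often missed in simulation. The members vary less than all clusters, so this does not give the rate for them. The causes of the shifts between alternatives were not tested.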
